A study of Mus musculus with 40 samples.

Results

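The genes described here were 10 plasma membrane amino acid transporters grouped as responsive to the transcription factor ATF4, out of the 55536 genes of the count tables: *Slc1a4*, *Slc1a5*, *Slc3a2*, *Slc6a9*, *Slc7a1*, *Slc7a3*, *Slc7a5*, *Slc7a11*, *Slc38a2* and *Slc43a1*. They were chosen by name with the measured fold changes of the ATR inhibitor (ATRi) against DMSO in these same libraries known, so that contrast is given below as a description, with no p-value for a member; how many members the fits called is printed only beside the share of all genes called, and nothing is read from it. The RNA came from mESCs, mouse embryonic stem cells, which are pluripotent cells of the early embryo, grown on gelatin in medium with serum and LIF. WT cells were present as 2 biological replicates, the *Ccnc* KO as 3 clones (D1, G2, H5), and the *Cdk8* KO as 3 clones (B9, H4, C8). Each line received either DMSO or AZD6738, the ATRi, at 900 nM for 4 h. The knockouts were made with CRISPR–Cas9 and each clone is a line grown from a single cell, so a clone differs from WT by its history as well as by the knocked-out gene. The *Ccnc* KO libraries were sequenced in one multiplex and the *Cdk8* KO libraries in another, and the same 4 WT libraries were sequenced again in each, so the comparisons of the 2 genotypes share their controls.

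ATF4 is the transcription factor at the end of the integrated stress response. When amino acids are short or proteins misfold, kinases phosphorylate eIF2α, general translation slows, and the *Atf4* mRNA is translated more; the protein then binds C/EBP-ATF response elements, whose core letters are TGATGNAA, beside genes for amino acid uptake, amino acid synthesis and tRNA charging. The transporters among them differ in what they carry. *Slc6a9* (GlyT1) takes up glycine, *Slc1a4* (ASCT1) and *Slc1a5* (ASCT2) exchange small neutral amino acids and glutamine, and *Slc38a2* (SNAT2) brings in small neutral amino acids with sodium. *Slc7a1* (CAT1) and *Slc7a3* (CAT3) carry arginine and lysine. *Slc3a2* (CD98 heavy chain) forms dimers with the light chains *Slc7a5* (LAT1), for large neutral amino acids, and *Slc7a11* (xCT), for cystine in exchange for glutamate. *Slc43a1* (LAT3) carries branched-chain amino acids without a heavy chain.

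The response element was looked for in the RefSeq windows from 250 bases before to 50 bases after each annotated start (GRCm38.p6), which were given for 7 of the 10 genes; *Slc1a5*, *Slc7a3* and *Slc7a5* had no entry. The 2 windows that held TGATGNAA on either strand are shown from 150 bases before the start, 5′ to 3′ on the strand of the gene, with the matches in capitals.
*Slc7a11* (chr3:50443614-50443763, minus strand): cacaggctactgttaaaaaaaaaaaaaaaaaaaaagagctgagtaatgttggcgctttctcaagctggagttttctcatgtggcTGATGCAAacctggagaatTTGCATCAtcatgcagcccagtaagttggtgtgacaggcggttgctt
*Slc1a4* (chr11:20332710-20332863, minus strand): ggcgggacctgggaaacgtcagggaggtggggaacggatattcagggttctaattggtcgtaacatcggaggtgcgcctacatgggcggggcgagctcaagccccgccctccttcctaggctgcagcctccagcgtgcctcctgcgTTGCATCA
In *Slc7a11* the 2 matches face each other, the first on the gene's strand with its first base 66 bases before the start and the second on the opposite strand at 47 bases. In *Slc1a4* the single match is on the opposite strand, begins 4 bases before the start and runs across it. Of all 32851 windows, 1304 (3.97%) held the motif; by gene it was 1219 of 27025 (4.51%). The windows of *Slc3a2*, *Slc6a9*, *Slc7a1*, *Slc38a2* and *Slc43a1* did not hold these letters, which says nothing about elements elsewhere or with other letters.

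Library totals lay between 30899823 and 67274049 counts with a median of 41972557. Levels are CPM, the counts of a gene scaled to a common library size by TMM, and log2 values carry a prior count of 2. The 4 WT libraries, sequenced in both multiplexes, gave a direct measure of the sequencing error: between the multiplexes, 9 of the transporters differed by a median of 0.040 on the log2 scale and at most by 0.16, for *Slc43a1*. *Slc7a11* had 1 to 17 counts per library and differed by up to 1.02, so it is described by its counts. The labels were checked first. *Ccnc* was at 43.8 and 43.4 CPM in WT under DMSO and at 6.12, 7.41 and 4.98 CPM in clones D1, G2 and H5, while *Cdk8* was at 78.8 and 71.1 CPM in WT and at 57.6, 57.0 and 64.3 CPM in clones B9, H4 and C8, a small difference (log2 fold change -0.35, SE 0.058, adjusted p = 0.011 by edgeR's quasi-likelihood test), so that its mRNA level is a weak check of the *Cdk8* label. The 12 pluripotency markers summed to 3924 to 5645 CPM in the DMSO libraries and none was at 0 in clone H4, the library with the lowest sum. Some libraries stood apart. The SD over genes of the log2 difference between the WT replicates under ATRi was 0.58 and 0.61 in the 2 multiplexes against 0.46 and 0.48 under DMSO, and WT replicate 2 under ATRi was left out of the fits, as the study did; the clone values below include it. Clone H4 differed from B9 with an SD of 0.63 and from C8 with 0.57 under DMSO, against 0.49 between B9 and C8.

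Under DMSO, the transporters spanned a wide range of levels, and the order was nearly the same in each genotype. Levels of different genes are compared per kilobase of exon. In WT (DMSO, *Ccnc* multiplex, n = 2), *Slc7a5* was the most abundant with 138 ± 3.51 CPM per kilobase (SD), followed by its partner *Slc3a2* with 118 ± 4.68. The cationic transporter *Slc7a3* had 60.7 ± 5.00, *Slc38a2* 32.2 ± 0.856 and *Slc1a5* 15.0 ± 0.542 CPM per kilobase. *Slc7a1*, which carries the same amino acids as *Slc7a3*, had 10.2 ± 0.700. Lower down stood *Slc1a4* with 6.89 ± 0.705, *Slc43a1* with 1.40 ± 0.0797 and *Slc6a9* with 0.925 ± 0.107, and *Slc7a11* was last with 0.0104 ± 0.00948 CPM per kilobase. No neighbours in this order overlapped in the 2 WT replicates. In the *Ccnc* KO clones the ranges of *Slc7a5* (115 to 120) and *Slc3a2* (106 to 124) overlapped, and so did those of *Slc43a1* (0.776 to 0.947) and *Slc6a9* (0.700 to 0.938). In the *Cdk8* KO clones the same pairs overlapped, and also *Slc1a5* (11.9 to 14.9) and *Slc7a1* (6.35 to 12.3 CPM per kilobase).

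**Figure D1:**
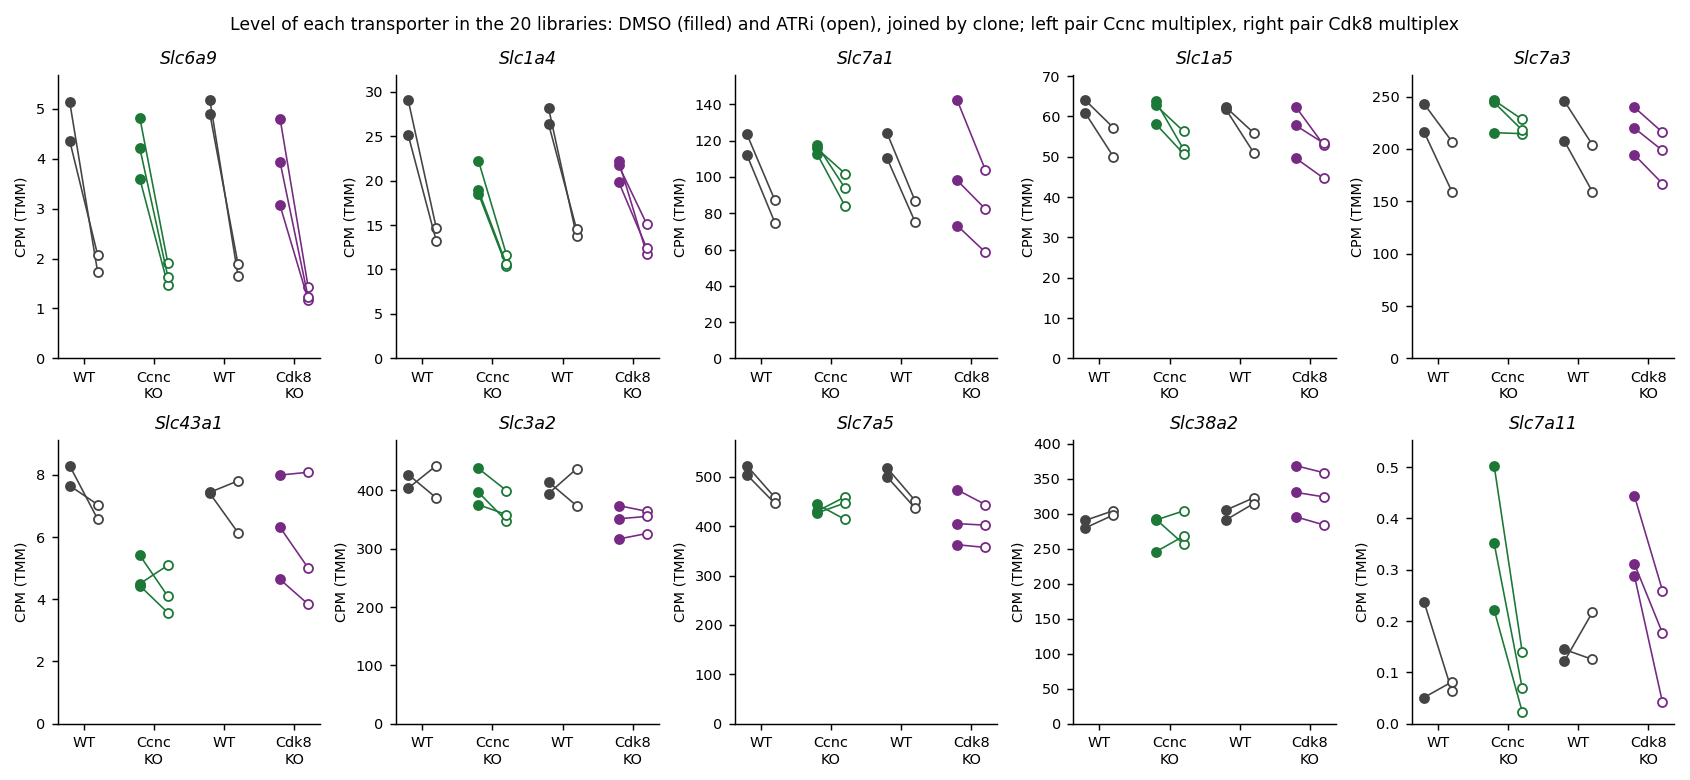
Level of the 10 transporters in CPM (linear axes from 0) in WT, *Ccnc* KO and *Cdk8* KO cells; filled points are DMSO libraries, open points ATRi libraries, and a line joins the libraries of a clone or WT replicate. *Slc6a9* and *Slc1a4* lie lower under ATRi in every pair, while the lines of *Slc3a2*, *Slc7a5*, *Slc7a11*, *Slc38a2* and *Slc43a1* run in both directions.

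The first comparison asks which transporters are lower after 4 h of ATRi, clone by clone. The response was uneven across the group: the glycine transporter *Slc6a9* and the neutral exchanger *Slc1a4* had the lowest ATRi to DMSO ratios of the 9 well-counted genes in every clone and WT replicate, the cationic carriers and *Slc1a5* were lower by smaller amounts, and the abundant *Slc3a2*, *Slc7a5* and *Slc38a2* had ratios within 0.20 of 0 on the log2 scale. *Slc6a9* was at 5.14 and 4.36 CPM in the WT replicates under DMSO and at 1.72 and 2.07 under ATRi (*Ccnc* multiplex). In the *Ccnc* KO clones D1, G2 and H5 it went from 4.82, 3.60 and 4.21 to 1.91, 1.47 and 1.64 CPM, and in the *Cdk8* KO clones B9, H4 and C8 from 4.80, 3.06 and 3.93 to 1.43, 1.17 and 1.22 CPM. All ATRi libraries of *Slc6a9* lay below all DMSO libraries, without overlap in any genotype. The mean log2 ratio of ATRi to DMSO was -1.31 ± 0.038 (SD, n = 3 clones) in *Ccnc* KO cells, a level 59.6% lower, and -1.57 ± 0.19 (66.4% lower) in *Cdk8* KO cells. In WT the log2 ratio was -1.55 for replicate 1 and -1.06 for replicate 2 in the *Ccnc* multiplex. In the *Cdk8* multiplex the same WT libraries gave -1.62 and -1.35. The WT ratios of the other transporters below are from the *Ccnc* multiplex unless stated. These values rest on 53 to 250 counts per library, and parts of the *Slc6a9* exons lie opposite exons of *Gm17114*, *Ccdc24* and *B4galt2*, which the strand-specific counting keeps apart.

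*Slc1a4* showed the next lowest ratios. It was at 29.0 and 25.1 CPM in WT under DMSO and at 14.7 and 13.2 under ATRi. The *Ccnc* KO clones D1, G2 and H5 had 22.2, 18.5 and 18.9 CPM under DMSO and 11.7, 10.4 and 10.6 under ATRi, and the *Cdk8* KO clones B9, H4 and C8 had 22.2, 21.7 and 19.9 CPM and then 11.8, 15.1 and 12.4. The DMSO and ATRi libraries did not overlap in any genotype. The mean log2 ratio was -0.87 ± 0.052 (SD, n = 3) for the *Ccnc* KO, 45.2% lower, and -0.70 ± 0.20 for the *Cdk8* KO, 38.6% lower. Clone H4 had the smallest ratio in size at -0.52, and clone B9 reached -0.91. The WT replicates were at -0.98 and -0.93 in the *Ccnc* and at -1.03 and -0.86 in the *Cdk8* multiplex. *Slc1a5*, the related exchanger that also carries glutamine, was lower by less: its log2 ratio was -0.28 and -0.16 in WT, -0.22 ± 0.074 in the *Ccnc* KO and -0.17 ± 0.063 in the *Cdk8* KO clones, negative in all 6 clones. *Slc38a2*, the third carrier of small neutral amino acids, had ratios on both sides of 0, with 0.07 and 0.09 in WT, -0.19, 0.13 and 0.06 in D1, G2 and H5, and -0.06, -0.04 and -0.03 in B9, H4 and C8.

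Of the arginine and lysine carriers, *Slc7a1* was lower in every pair. Its levels were 124 and 112 CPM in WT under DMSO and 87.2 and 74.8 under ATRi, and 118, 116 and 113 CPM against 93.8, 102 and 84.0 in clones D1, G2 and H5. The 2 treatments did not overlap in WT or *Ccnc* KO cells. In *Cdk8* KO cells the clones lay so far apart (142, 73.2 and 98.1 CPM for B9, H4 and C8 under DMSO, 104, 58.5 and 82.4 under ATRi) that the groups overlapped although each clone was lower. The mean log2 ratio was -0.31 ± 0.12 (SD, n = 3) in *Ccnc* KO, 19.4% lower, and -0.34 ± 0.10 in *Cdk8* KO, 21.1% lower. *Slc7a3* had smaller ratios, -0.09 ± 0.081 and -0.17 ± 0.041 in the KO clones and -0.23 and -0.45 in the WT replicates, and was also below 0 in all pairs.

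The subunits of the most abundant dimer, *Slc3a2* and *Slc7a5*, had small ratios whose direction in some genotypes differed between clones or replicates. For *Slc3a2* the mean log2 ratio was -0.13 ± 0.061 in the *Ccnc* KO, negative in all 3 clones, and 0.0069 ± 0.041 in the *Cdk8* KO clones, and the WT replicates went in opposite directions, -0.14 for replicate 1 and 0.13 for replicate 2, the library that the fits leave out. *Slc7a5* was at 0.02 ± 0.11 and -0.04 ± 0.045 in the KO clones and at -0.19 and -0.18 in WT, where the ATRi libraries lay below the DMSO libraries without overlap. The other light chain, *Slc7a11*, was close to the detection limit: 11 and 2 counts in WT under DMSO and 3 and 3 under ATRi, 17, 13 and 11 counts against 5, 3 and 1 in D1, G2 and H5, and 14, 12 and 14 against 2, 8 and 17 in B9, H4 and C8. The counts were lower under ATRi in all *Ccnc* KO clones, at a size where several libraries lie at or under the floor of 3 counts, so no fold is given. For C8 the library totals differed, with 30899823 counts under DMSO and 67274049 under ATRi. Scaled to library size, *Slc7a11* in C8 was at 0.44 CPM under DMSO and 0.26 under ATRi. *Slc43a1* had mixed ratios, -0.40, -0.31 and 0.18 in D1, G2 and H5 and -0.27, 0.02 and -0.33 in B9, H4 and C8.

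**Figure D2:**
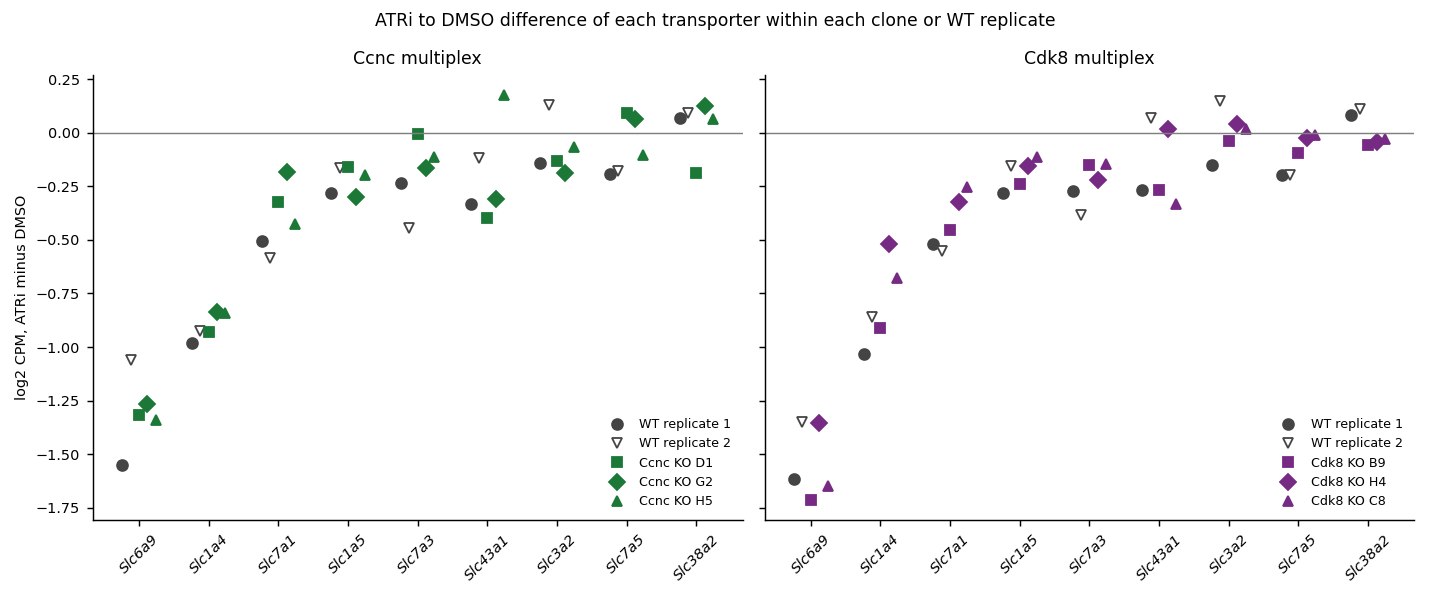
Log2 CPM under ATRi minus log2 CPM under DMSO (y axis, log2 scale) for 9 transporters (x axis) in each WT replicate and KO clone of the *Ccnc* multiplex (left) and the *Cdk8* multiplex (right). *Slc6a9* lies between -1.71 and -1.06 and *Slc1a4* between -1.03 and -0.52, whereas *Slc7a5* and *Slc38a2* scatter within 0.20 of 0.

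The fits over all genes gave the following values for the contrast that the choice of the genes used. The median fitted log2 fold change of the 9 well-counted transporters was -0.21 in the *Ccnc* and -0.20 in the *Cdk8* multiplex, and that of all genes tested was -0.0088 and -0.0070. All 10 transporters passed the filter on low counts in these fits. In the *Ccnc* multiplex 3 of 10 were called at an adjusted p under 0.05, *Slc1a4*, *Slc6a9* and *Slc7a1*, where 1.11% of 18577 genes were called, 0.743% lower and 0.366% higher. In the *Cdk8* multiplex 2 of 10 were called, *Slc1a4* and *Slc6a9*, where 0.0855% of 18721 genes were called, 0.0481% lower and 0.0374% higher. Because a clone's DMSO and ATRi libraries are the same line, the fit with the clone as a replicate block is given beside these counts: it called 5 transporters in each multiplex, where 2.43% and 11.3% of all genes were called, adding *Slc1a5* in both, *Slc7a11* in the *Ccnc* and *Slc7a1* and *Slc7a3* in the *Cdk8* multiplex. Within the *Ccnc* KO clones alone *Slc7a11* did not pass the filter and 2 of 9 were called (0.0894% of genes; 2 with the block, 0.65%). Within the *Cdk8* KO clones alone edgeR called 0 of 10 (0% of genes), with 2 at an unadjusted p under 0.05 (1020 of 17162 genes). There DESeq2 called 2 (58 of 17162 genes), and the block called 5 (6.95%). The rule that chose the genes used this contrast, so nothing is read from these counts. The counts in the *Cdk8* multiplex also rested on single lines, since 0 transporters were called without clone C8 or without WT replicate 1 and 1 without clone B9 or without WT replicate 2; within the *Ccnc* KO clones 0 were called when any of the 3 clones was left out.

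**Figure D3:**
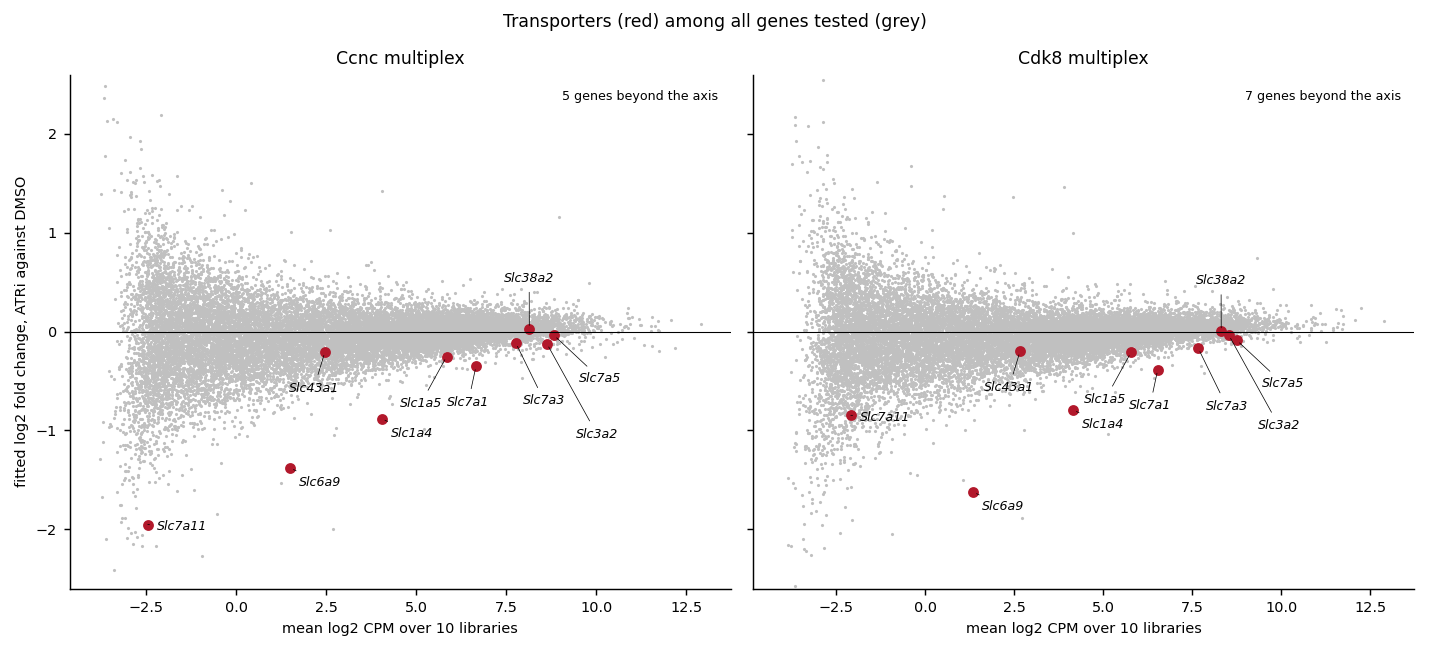
Fitted log2 fold change of ATRi against DMSO (y axis) by mean log2 CPM over the 10 libraries (x axis) for all genes tested in each multiplex (grey) and the 10 transporters (red). *Slc6a9* lies at -1.38 and -1.62 and *Slc1a4* at -0.88 and -0.79 in the *Ccnc* and *Cdk8* multiplex, and the most abundant transporters lie close to 0. The transporters were chosen with this contrast known.

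Whether the response to ATRi differed between the knockouts and WT was tested with the interaction of genotype and treatment. No transporter was called in either multiplex (0 of 10 by edgeR, 0% of all genes in each; 0 of 10 had an unadjusted p under 0.05, and DESeq2 called 0). For the 9 well-counted genes the difference in log2 response, KO minus WT, lay between -0.10 and 0.18 for *Ccnc* KO, with SEs from 0.11 for *Slc7a5* to 0.31 for *Slc6a9*, and between -0.17 and 0.28 for *Cdk8* KO, with SEs from 0.13 for *Slc3a2* to 0.51 for *Slc43a1*. For *Slc1a4* it was 0.0093 (SE 0.19) in *Ccnc* KO and 0.28 (SE 0.20) in *Cdk8* KO. With the clone as a replicate block, the SEs of the 9 genes for *Cdk8* KO ran from 0.071 for *Slc38a2* to 0.30 for *Slc6a9*. The differences then lay between -0.14 for *Slc38a2* and 0.31 (SE 0.15) for *Slc1a4*. The counts at an unadjusted p given above hold for the fits without the block only. Only 1 WT library under ATRi entered these fits. Differences larger than their SEs, such as that of *Slc1a4* in *Cdk8* KO, were also not called. The counts therefore do not show that the genotypes respond alike.

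The second comparison asks how the loss of Cyclin C or CDK8, subunits of the Mediator kinase module, goes with the level of each transporter. The DMSO and ATRi libraries of a clone both enter this fit, as separate libraries. The transporters were chosen with earlier results of these data known. The adjusted p-values of both knockouts below therefore describe these libraries and are not independent tests. In *Ccnc* KO cells *Slc43a1* and *Slc1a4* were lower than in WT and the other transporters were not called; in *Cdk8* KO cells none was called, and most fitted values were below 0. *Slc43a1* was at 8.30 and 7.65 CPM in WT under DMSO and at 5.41, 4.44 and 4.50 in D1, G2 and H5, and under ATRi at 6.57 and 7.04 CPM against 4.10, 3.57 and 5.09. The groups did not overlap under either treatment. The fitted log2 fold change was -0.69 (SE 0.12, adjusted p = 0.0018), 0.618 of the WT level by the fit, and it lay in the same direction in all 3 clones under DMSO and ATRi. For *Slc1a4*, whose values are given above, it was -0.44 (SE 0.085, adjusted p = 0.0035), also with no overlap under either treatment and in the same direction in the 3 clones. *Slc7a5* had the third lowest adjusted p (log2 fold change -0.17, SE 0.056, adjusted p = 0.062): it was at 523 and 504 CPM in WT and 430, 427 and 444 CPM in D1, G2 and H5 under DMSO, with no overlap, and at 458 and 446 against 459, 447 and 414 CPM under ATRi, where the groups overlapped. DESeq2 called it (adjusted p = 0.036). The count of 2 of 10 transporters stands beside 12.3% of all 18577 genes, 5.28% lower and 7.01% higher; when a 2-fold difference was also required it was 0 of 10, where 1.94% of genes were called. Both calls were lost without WT replicate 1 (adjusted p = 0.14 for *Slc43a1* and 0.26 for *Slc1a4*), which leaves WT replicate 2 under DMSO as the only WT library, and *Slc1a4* was at adjusted p = 0.068 in the DMSO libraries alone.

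In *Cdk8* KO cells 0 of 10 transporters were called by edgeR. Of all 18721 genes 4.31% were called, 2.03% lower and 2.28% higher, and 1.05% with the fold threshold. DESeq2 also called 0 transporters, where it called 1733 of 18721 genes. By edgeR 4 transporters had an unadjusted p under 0.05, as did 3995 of the 18721 genes. The 4 were *Slc3a2* (log2 fold change -0.18, SE 0.059, adjusted p = 0.13), *Slc7a5* (-0.25, SE 0.087, adjusted p = 0.13), *Slc1a4* (-0.25, SE 0.099, adjusted p = 0.17) and *Slc6a9* (-0.36, SE 0.16, adjusted p = 0.22). Under DMSO the *Cdk8* KO clones B9, H4 and C8 were below WT for *Slc7a5* with 474, 362 and 405 CPM against 518 and 500, and for *Slc3a2* with 374, 317 and 351 CPM against 414 and 395, without overlap. *Slc1a4* was at 22.2, 21.7 and 19.9 CPM against 28.2 and 26.4, again without overlap under DMSO, and under ATRi at 11.8, 15.1 and 12.4 against 13.7 and 14.5, with clone H4 above WT. Single clones decided calls here: *Slc1a4* was called without H4 (log2 fold change -0.30, adjusted p = 0.043) and *Slc7a5* without B9 (-0.35, adjusted p = 0.020). The clones differed most among themselves for *Slc7a1* and *Slc43a1*, where H4 and B9 lay at opposite ends. For *Slc7a1* the log2 difference from WT under DMSO was -0.68 in H4 and 0.28 in B9, and for *Slc43a1* it was 0.11 in H4 and -0.67 in B9. H4 also had the highest *Slc38a2*, 369 CPM under DMSO against 305 and 291 in WT. *Slc7a11* had 14, 12 and 14 counts in the *Cdk8* KO clones under DMSO and 7 and 4 in WT, and 17, 13 and 11 counts in the *Ccnc* KO clones and 11 and 2 in WT of that multiplex; it was not called (adjusted p = 0.30 and 0.29).

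**Figure D4:**
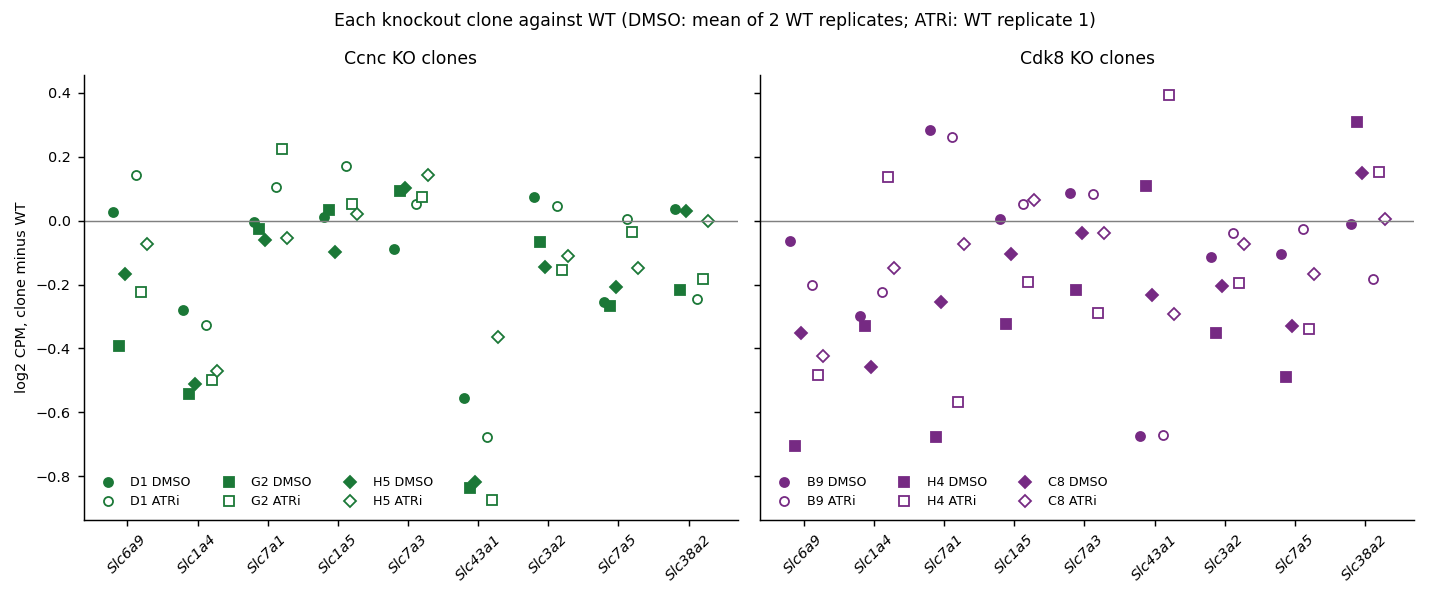
Log2 CPM of each KO clone minus WT (y axis, log2 scale; mean of 2 WT replicates under DMSO, WT replicate 1 under ATRi) for 9 transporters in *Ccnc* KO clones (left) and *Cdk8* KO clones (right); filled symbols are DMSO and open symbols ATRi. *Slc43a1* and *Slc1a4* lie below 0 in every *Ccnc* KO library, and clones H4 and B9 lie at opposite ends for *Slc7a1* and *Slc43a1*, with C8 between them.

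Markers of other cell types differed with the genotype. Their lists were chosen with earlier results of these data known, so the counts are descriptions. Of 14 primitive endoderm markers, 12 were higher in the *Ccnc* KO and 14 in the *Cdk8* KO clones (11 with the replicate block); their summed level was 217 to 248 CPM in WT, 355 to 503 CPM in *Ccnc* KO and 637 to 827 CPM in *Cdk8* KO clones under DMSO, and none of the 14 was at 0 in any library. Of 8 trophectoderm markers, 4 were higher in *Ccnc* KO cells (2 with all WT libraries) and 1 of the 7 tested in *Cdk8* KO cells (0 with the replicate block and 4 with DESeq2), and their sum was 297 CPM in clone H4 under DMSO and 58.1 to 69.6 CPM in WT, with none at 0 in H4. Of all genes, edgeR called 7.01% higher in *Ccnc* KO and 2.28% higher in *Cdk8* KO cells. In either direction, the block called 237 and DESeq2 1733 of 18721 genes for *Cdk8* KO. With all WT libraries 1878 of 17774 genes were called for *Ccnc* KO. In bulk RNA, fewer cells of a type and less RNA per cell cannot be told apart. The part of these cells in the transporter results was not tested.

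The remaining genes of the pathway were described from lists of ATF4 regulators and targets, which, like the transporters, were put together with results of these data known. Of 20 regulators and signalling genes, 5 (*Ccnc* multiplex) and 2 (*Cdk8* multiplex) were lower under ATRi and 0 were higher, beside the 1.11% and 0.0855% of all genes called. With the replicate block 6 and 9 were lower, beside 2.43% and 11.3%, the shares that the other counts with the block below stand beside as well. *Chac1*, which degrades glutathione, had fitted log2 fold changes of -1.99 (SE 0.16) and -1.88 (SE 0.13), and *Trib3*, a pseudokinase that restrains ATF4, -0.99 (SE 0.081) and -1.04 (SE 0.075). *Atf4* itself was at 342 and 302 CPM in WT under DMSO and 229 and 266 under ATRi, with fitted values of -0.47 (SE 0.095) and -0.42 (SE 0.071). Of 14 enzymes of amino acid and one-carbon metabolism, 3 and 1 were lower (4 and 8 with the block). They included the alanine aminotransferase *Gpt2* (-0.54, SE 0.067, and -0.61, SE 0.053) and the mitochondrial folate enzyme *Mthfd2* (-0.31, SE 0.057; -0.33, SE 0.094, not called, in the *Cdk8* multiplex). Of 13 aminoacyl-tRNA synthetases, edgeR and DESeq2 called 0 in either multiplex, with 2 and 3 at an unadjusted p under 0.05, and the block called 0 and 5. Of 24 amino acid transporters outside the list, 22 were tested and 0 were called by edgeR and by DESeq2 in either multiplex, with 6 and 3 at an unadjusted p under 0.05; the block called 0 and 3. Their median log2 fold change was -0.06 and -0.02. Of all genes, 3009 of 18577 and 2146 of 18721 had an unadjusted p under 0.05 by edgeR in the 2 multiplexes.

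In the knockouts the same lists moved in part. Of the 20 regulators, the *Ccnc* KO had 3 lower and 2 higher, and the *Cdk8* KO 4 lower and 1 higher. *Trib3* was lower in both (-0.32, SE 0.082, adjusted p = 0.020, and -0.50, SE 0.076, adjusted p = 0.0077), whereas the stress-induced transcription factor *Atf3* was higher (0.95, SE 0.15, adjusted p = 0.0011, and 1.55, SE 0.30, adjusted p = 0.022). *Atf4* was lower in *Cdk8* KO (-0.41, SE 0.073, adjusted p = 0.016) and at -0.27 (SE 0.098, adjusted p = 0.088) in *Ccnc* KO cells. Of the enzymes, 4 were lower in each knockout, including the proline synthesis enzyme *Pycr1* (-0.58 and -0.75), and 2 and 1 were higher, with *Cth*, which makes cysteine from cystathionine, in both (0.35 and 0.45). Of the synthetases, 6 and 3 were lower and 0 higher; *Sars*, which charges serine tRNA, was at -0.27 and -0.30. Of the other transporters, 2 were lower and 2 higher in *Ccnc* KO, with *Slc38a5*, a glutamine carrier, at -0.73 (SE 0.21, adjusted p = 0.033) and *Slc43a2* (LAT4), a relative of *Slc43a1*, at 0.39 (SE 0.071, adjusted p = 0.0024). In *Cdk8* KO cells edgeR called 0 of 22, with 8 at an unadjusted p under 0.05, and DESeq2 called 3. The edgeR counts stand beside the 5.28% and 2.03% of all genes that were lower and the 7.01% and 2.28% that were higher. For *Cdk8* KO, 3995 of 18721 genes had an unadjusted p under 0.05 by edgeR, and DESeq2 called 1733. With the clone as a replicate block, the *Ccnc* KO calls went from 6 to 4 for the enzymes (3 lower and 1 higher, *Cbs* and *Aldh18a1* lost) and from 4 to 3 for the other transporters (*Slc7a6* lost), and *Slc38a5* was not called with all WT libraries. With the block the *Cdk8* KO calls went from 5 to 2 for the regulators, from 5 to 2 for the enzymes and from 3 to 1 for the synthetases, and *Atf3* and *Cth* were no longer called there. The calls over all genes also went down with the block, from 2284 to 1885 of 18577 for *Ccnc* KO. For *Cdk8* KO they went from 806 to 237 of 18721.

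The genes whose level followed the mean of the transporters most closely were sought among 18130 genes tested in both multiplexes. The measure was the Pearson correlation of log2 CPM, centred per multiplex, with the mean of the 10 centred transporters over the 20 library profiles. The closest genes were *Chac1* (r = 0.97), *Adm2* (0.96), *Herpud1* (0.96), *Trib3* (0.94) and *Nupr1* (0.93). *Slc7a11* has the widest scatter on this scale, and without it the closest were *Trib3* (0.98), *Herpud1* (0.97), *Chac1* (0.96), *Gpt2* (0.96) and *Nupr1* (0.95). The points share libraries, depth and treatment, and each WT library enters from both multiplexes, so these are descriptions of these libraries.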

How the data were processed

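RNA-seq of 20 libraries, 10 per multiplex and 2 lanes each, was analysed. Per the labels, the authors trimmed reads with Trimmomatic 0.38, aligned them with HISAT2 2.1.0 to GRCm38.p6 and counted them per gene by strand with featureCounts 2.0.1; the deposited counts per lane are not normalized. The deposited log2 (rlog) values, which shrink genes with few counts, were not used. Reads shared between similar genes at alignment cannot be restored from counts. Lanes were summed per library (30899823 to 67274049 counts), so counting error is largest for *Slc7a11* (1 to 17 counts) and *Slc6a9* (53 to 250 counts). All 55536 identifiers were found in GENCODE M21, which gave symbols and exon lengths.

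Each multiplex was fitted over all genes by the quasi-likelihood test of edgeR 4.0.16 (R 4.3.3) after TMM scaling and filterByExpr on the genotype and treatment groups, with Benjamini-Hochberg adjusted p under 0.05. The genotype effect was fitted beside treatment, the ATRi effect beside genotype or within the KO clones, and the interaction in a model that held these terms together. As in the study, the ATRi library of WT replicate 2 did not enter, so the lone WT library under ATRi is assumed to vary like the other groups. The p-values measure the spread between libraries. In the genotype fits the DMSO and ATRi libraries of a clone entered separately, so those p-values mix the spread within clones and between them. With the clone as a replicate block, 237 of 18721 genes were called for *Cdk8* KO, against 806 without it. DMSO and ATRi libraries of a clone number come from the same line and are therefore paired; their deviations from the group means correlated over genes with r = 0.18, 0.021 and 0.18 for D1, G2 and H5 and 0.55, 0.63 and 0.18 for B9, H4 and C8.

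The members and the 9 lists were chosen with earlier results of these data known. Named genes were all members, *Atf4*, *Ccnc* and *Cdk8*, at most 4 called genes per list and contrast by size, and the 5 with the most similar pattern. Alternatives were DESeq2 1.42.0, its size factors, no filter beyond 1 count, all WT libraries, DMSO libraries alone, the replicate block (limma 3.58.1 voom for the genotype effect), a prior count of 0.5 and leaving out each clone or WT replicate. The pattern without *Slc7a11* was added after seeing the data.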

Additional observations from a re-analysis of the deposited data

Results flagged for a closer look

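*Slc38a2* differed in direction between genotypes in the *Cdk8* multiplex: its log2 ratio of ATRi to DMSO was 0.08 and 0.11 in the WT replicates and -0.06, -0.04 and -0.03 in the *Cdk8* KO clones B9, H4 and C8. The difference was tested as the interaction by edgeR and was not called. It was -0.17 (SE 0.18), and -0.14 (SE 0.071) with the clone as a replicate block. In the *Ccnc* multiplex the KO clones lay on both sides of 0, at -0.19, 0.13 and 0.06. The same WT libraries gave 0.07 and 0.09 there.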

How the results depend on the processing

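Members called, beside the values in the text: under the replicate block, 5 for ATRi in the *Ccnc* and 5 in the *Cdk8* multiplex and 5 within the *Cdk8* KO clones; with no filter beyond 1 count, 5 in the *Ccnc* multiplex and 4 within the *Ccnc* KO clones; with DESeq2, 2 within the *Cdk8* KO clones; for *Ccnc* KO against WT, 1 in the DMSO libraries alone and 0 with the fold threshold. The replicate block changed no other call of a transporter. Leaving out each clone or WT replicate gave 0 to 3 (*Ccnc* KO against WT), 0 to 1 (*Cdk8* KO against WT), 2 to 4 and 0 to 2 (ATRi, *Ccnc* and *Cdk8* multiplex), 0 within the *Ccnc* KO clones, and 0 in the other comparisons; the interaction without WT replicate 1 could not be fitted. Small genotype log2 fold changes that changed sign were, for *Ccnc* KO, *Slc1a5* (-0.012 in the DMSO libraries alone, -0.027 with all WT libraries) and *Slc7a1* (-0.027 in the DMSO libraries alone), and for *Cdk8* KO *Slc7a3* (0.013 with all WT libraries). Over the leave-outs these ran from -0.064 to 0.065 (*Slc1a5*, *Ccnc* KO), from -0.0053 to 0.062 (*Slc7a1*, *Ccnc* KO), from -0.40 to 0.062 (*Slc7a1*, *Cdk8* KO) and from -0.15 to 0.059 (*Slc7a3*, *Cdk8* KO). The cause of these changes was not tested. Of the transporters, depth limits *Slc7a11* most.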

Other observations

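Of 12 NRF2 target genes, the antioxidant programme that shares *Slc7a11* with ATF4, 11 were tested and 2 were higher in *Ccnc* KO cells, where 7.01% of all genes were higher: the quinone reductase *Nqo1* (log2 fold change 0.49, SE 0.070, adjusted p = 0.00043 by edgeR) and the ferritin light chain *Ftl1* (0.63, SE 0.17, adjusted p = 0.026). DESeq2 and the fit with all WT libraries called *Nqo1* and not *Ftl1*. The NRF2 list was also chosen with earlier results of these data known, so its values are descriptions. In *Cdk8* KO cells edgeR called 0 of 11, with 6 at an unadjusted p under 0.05, and DESeq2 called 1. Of all 18721 genes, 3995 had an unadjusted p under 0.05 by edgeR and DESeq2 called 1733. The heme oxygenase *Hmox1* was lower under ATRi in the *Ccnc* multiplex (-0.27, SE 0.061, adjusted p = 0.048), and at -0.15 (SE 0.057, adjusted p = 0.35) in the *Cdk8* multiplex.

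Both marker lists here were chosen with earlier results of these data known, so the counts are descriptions. Of 12 pluripotency markers, edgeR called 5 lower in the *Ccnc* KO and 3 in the *Cdk8* KO clones, where 5.28% and 2.03% of all genes were lower. For *Cdk8* KO the replicate block called 1 lower and left out *Tdgf1*. DESeq2 called 8 lower there, and the fit with all WT libraries 5 (1130 of 17863 genes called). For *Ccnc* KO DESeq2 called 6 lower and 1 higher, and the fit with all WT libraries 4 lower (1878 of 17774 genes called). By edgeR the Nodal co-receptor *Tdgf1* was lower in both (-0.32, SE 0.054, adjusted p = 0.0013, and -0.29, SE 0.062, adjusted p = 0.033). Of 8 fibroblast markers, 4 and 7 were tested and edgeR called 0 in either knockout. At an unadjusted p under 0.05 were 3 and 3, and DESeq2 called 1 and 1. Their sum was 6.86 to 7.07 CPM in WT and 22.6 CPM in clone H4 under DMSO. Of all genes, 4957 of 18577 and 3995 of 18721 had an unadjusted p under 0.05 by edgeR. DESeq2 called 2636 and 1733 of them, and the replicate block 1885 and 237.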
